A study of Mus musculus with 2 samples.

Results

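Open sites at the 3′ ends of protein-coding genes were described in the hippocampus of young mice. A site was an autosomal DNase-seq peak of replicate 1, from the longer of its deposited peak lists, that a peak of the matching list of replicate 2 overlapped by at least 1 bp. Its midpoint had to lie within 500 bp of the annotated 3′ end of a protein-coding gene of GENCODE M21, outside coding sequence and over 1 kb from every annotated transcript start. Of 115699 replicate 1 peaks, 112664 were autosomal and 80205 of those were shared with replicate 2. Of the shared peaks, 1212 lay within 500 bp of a gene 3′ end, 1022 of these were outside coding sequence, and 648 were also over 1 kb from every start. These 648 sites lay at 620 genes. At 26 genes there were 2 sites, and Acap3 had 3.

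Both libraries came from hippocampus tissue of 14-day-old female B6CASTF1/J mice, the hybrid offspring of C57BL/6J and CAST/EiJ parents, and both labels name 3 females. The labels number them biological replicates 1 and 2 of a single group, for which no treatment is named, with separate biosample identifiers and a common donor identifier. Nothing in the sources used here says that the libraries came from separate animals or pools, so some of their spread may be technical. The tissue is a mixture, so a change in the number of cells of a type cannot be told apart from a change in openness per cell. With 1 group and with members picked by peak calls in both libraries, no test was run, and every value below is a description of these 2 libraries.

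DNase I cuts DNA where nucleosomes are displaced, and sequenced cut ends therefore map promoters, enhancers, insulators and other occupied elements. Within such a site, a short protected stretch where a bound protein shields the DNA is called a footprint. At the 3′ end of a gene the polyadenylation machinery reads the hexamer AATAAA or its variants in the nascent RNA, cleaves the transcript downstream of it and adds the poly(A) tail, after which RNA polymerase II terminates. DNA around these ends is commonly rich in A and T, and runs of A in particular resist nucleosome wrapping. Open sites near gene ends can also be enhancers, insulators bound by CTCF (a zinc finger protein that blocks loop extrusion) or starts of unannotated transcripts.

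The 4 strongest sites that overlap no annotated exon are printed whole, because they show which stretches of an open gene end were protected. Each is given 5′ to 3′ on the strand of the gene, from the RefSeq GRCm38.p6 reference (mm10), and capitals mark the bases of footprints of replicate 1 that overlap a footprint of replicate 2. The mice also carry a CAST/EiJ allele, whose sequence and coverage at the sites were not examined.
Sec14l2, chr11:4096601-4096820, minus strand: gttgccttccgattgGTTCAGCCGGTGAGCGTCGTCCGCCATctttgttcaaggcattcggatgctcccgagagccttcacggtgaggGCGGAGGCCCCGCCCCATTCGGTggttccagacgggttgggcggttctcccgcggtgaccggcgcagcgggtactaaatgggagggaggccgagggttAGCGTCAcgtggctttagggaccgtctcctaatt
Fam120a, chr13:48878661-48878900, minus strand: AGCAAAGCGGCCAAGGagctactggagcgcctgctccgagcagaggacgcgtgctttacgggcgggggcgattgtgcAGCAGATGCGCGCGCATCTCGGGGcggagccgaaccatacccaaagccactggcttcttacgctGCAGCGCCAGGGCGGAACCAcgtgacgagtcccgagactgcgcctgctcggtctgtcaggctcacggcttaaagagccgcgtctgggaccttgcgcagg
Hes7, chr11:69124181-69124380, plus strand: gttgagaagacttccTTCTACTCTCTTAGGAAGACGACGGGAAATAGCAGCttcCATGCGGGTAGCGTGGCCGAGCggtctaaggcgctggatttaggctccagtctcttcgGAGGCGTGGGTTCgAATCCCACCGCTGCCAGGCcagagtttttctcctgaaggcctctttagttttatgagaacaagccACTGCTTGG
Thbs4, chr13:92751821-92752000, minus strand: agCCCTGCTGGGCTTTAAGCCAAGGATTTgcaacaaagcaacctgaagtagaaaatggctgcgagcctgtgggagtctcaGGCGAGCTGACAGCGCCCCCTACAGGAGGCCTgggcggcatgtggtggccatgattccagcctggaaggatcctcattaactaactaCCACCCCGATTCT

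The Sec14l2 and Fam120a sites were rich in CpG, with 64.5% and 66.5% GC and a ratio of observed to expected CpG of 1.04 in both, against a median ratio of 0.246 over all 648 sites. Each held 3 footprints found in both libraries. The Hes7 site held 5 such footprints and the letters GTTCGANTC, the core of the B box at which transcription factor IIIC recognizes tRNA genes. That motif was looked for only after the Hes7 sequence had been read, on both strands of the whole peak. It occurred in 2 of the 648 sites (0.309%), at Hes7 and at Mrpl58, and in 0.197% of the other 52293 shared distal sites. Here a shared distal site is any autosomal shared peak outside coding sequence and over 1 kb from every start. The Mrpl58 site lay 286 bp past the gene end, and its signal was 5.68 (replicate 1) and 1.59 (replicate 2). No annotation of nuclear tRNA genes was used, so the Hes7 and Mrpl58 sites were not set against tRNA gene models. The distance of these sites from a transcript start therefore leaves out any start of a tRNA gene.

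A second set shows the sites with a match to the core of the CTCF consensus, a 12-letter motif, in the 200 bp around the midpoint. Capitals now mark the match, which at both genes reads in the direction of the gene. Both lines give the whole peak, on the gene's strand of mm10.
Ripor1, chr8:105622481-105622660, plus strand: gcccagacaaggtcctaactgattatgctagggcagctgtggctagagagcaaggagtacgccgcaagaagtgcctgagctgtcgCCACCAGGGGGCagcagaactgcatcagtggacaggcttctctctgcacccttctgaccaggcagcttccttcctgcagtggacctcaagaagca
Rap1gap, chr4:137730221-137730400, plus strand: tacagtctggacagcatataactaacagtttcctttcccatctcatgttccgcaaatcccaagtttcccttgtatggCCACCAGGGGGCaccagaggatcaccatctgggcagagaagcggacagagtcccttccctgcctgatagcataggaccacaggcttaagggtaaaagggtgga

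At the other genes the match is given with 9 bases on either side, in the direction in which the consensus reads, since these sites overlap annotated exons or are shown only for the motif. The coordinates are those of the 12 capital letters on mm10.
Dand5, core at chr8:84815731-84815742, minus strand: cgcttttagCCACTAGGTGGCaccgcgtcc
Pitx3, core at chr19:46135447-46135458, plus strand: tcccagagaCCACCAGGTGGCgtcgcagca
Ror2, core at chr13:53109650-53109661, plus strand: ctttggactCCAGCAGATGGCagcatcgag
Ror2, core at chr13:53109752-53109763, plus strand: catcctccgCCAGCAGGGGGCtcacggagc
Bcan, core at chr3:87987144-87987155, minus strand: aggctgtgaCCAGTAGAGGGCgctgcagat
Npm3, core at chr19:45747677-45747688, minus strand: ccccagggaCCACCAGGTGGCactgtggcc
Stac3, core at chr10:127509132-127509143, plus strand: ccaacttggCCACCAGGGGGCgatgcaaga
Rdh5, core at chr10:128913388-128913399, minus strand: gagagatggCCACCAGAGGGCgcttttctc

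Signal, the authors' value per peak in units whose scaling is not stated, was described within each library. Over the 648 sites its median was 1.30 in replicate 1, with a middle range of 0.828 to 2.28 and extremes of 0.160 and 17.0. In replicate 2 the median was 0.906, with a middle range of 0.548 to 1.47 and extremes of 0.133 and 13.1. The sites covered a wide range of strength in both lists, with a median percentile of 67.0 in replicate 1 and 76.1 in replicate 2. A percentile is a rank within the whole list of its library, and the lists held 115699 and 167829 peaks. Each replicate 2 value is that of the strongest overlapping peak, so the percentiles of the libraries are not on a common scale. The other shared distal sites had median percentiles of 53.2 and 68.4, and shared promoter peaks had signal medians of 3.21 and 1.41. Shared distal sites near the ends were like those at them. In steps of 500 bp between 500 bp and 5 kb from the end, signal medians were 1.11 to 1.42 in replicate 1. In replicate 2 they were 0.741 to 1.01.

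Signal was higher in replicate 1 at 545 sites (84.1%), and the median ratio of replicate 1 to replicate 2 was 1.59. The ratio was 1.37 at other shared distal sites and 2.33 at shared promoter peaks, so it varied with the class of peak. It also moved with base composition. At gene ends it was 1.01 for sites under 45% GC and 2.17 for sites of 60% or more, and at other distal sites it was 0.846 and 2.19 in the same classes. The part of base composition in the ratio was not tested. Across the 648 sites the log2 signals of the libraries had a Pearson r of 0.781 and the signals a Spearman rank correlation of 0.767, which describe regions of the same libraries that were called in both. Of the 65 strongest sites of each library, 44 (67.7%) were the same.

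**Figure D1:**
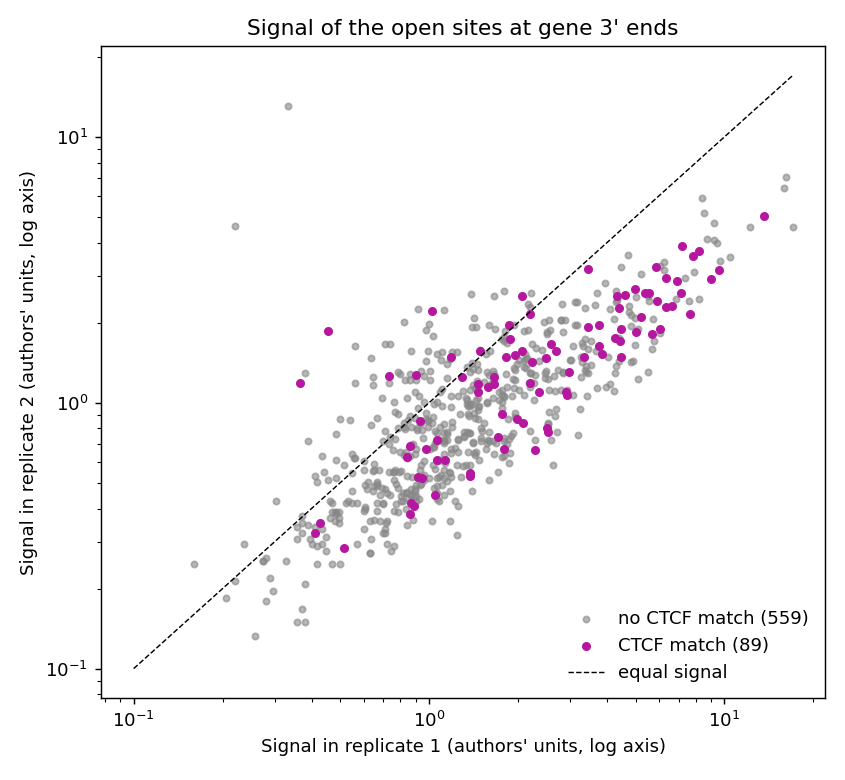
Signal of each of the 648 sites in replicate 1 (horizontal, authors' units, log axis) and replicate 2 (vertical, log axis). Purple points are the 89 sites with a CTCF match, grey points the other 559, and the dashed line marks equal signal; 545 sites lie below it, and 2 sites of chromosome 9 stand far above it.

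Both sites far above the line lie in the first assembled bases of chromosome 9. The site at Gm10722 had 0.334 in replicate 1 and 13.1 in replicate 2, and the site at Gm11168 had 0.220 and 4.61. Their windows were 100% repeat sequence with a GC content of 34.0% and 35.5%. The median window of the 648 sites held 0% repeat. Away from these, replicate 2 exceeded replicate 1 by no more than 4.09 times, at Nmd3, and 13 sites in all (2.01%) had at least 2 times the signal in replicate 2, against 203 (31.3%) with at least 2 times the signal in replicate 1. These sites were singled out after their values were seen, and without Gm10722 the highest signal in replicate 2 was 7.07, at Sec14l2.

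The 12 strongest sites, ranked by the smaller of their percentiles in both libraries, lay at genes of unlike function. The first, 329 bp past the end of Sec14l2, which encodes a lipid-binding protein that carries tocopherol, reached 16.1 in replicate 1 and 7.07 in replicate 2. Values that follow are signals in that order. The second lay 439 bp past the end of Fam120a, an RNA-binding scaffold gene, with 15.9 and 6.43. At Dand5, which encodes a secreted antagonist of Nodal, the site was 335 bp before the end, in the 3′ UTR, with 13.6 and 5.05. Dand5 had a further, weaker site 125 bp past its end, with 2.55 and 1.12.

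The site of Rtn2, a reticulon gene of the endoplasmic reticulum, lay in the 3′ UTR 160 bp before the end, with 12.2 and 4.58. At 1700001O22Rik a site 89 bp past the end had 17.0 and 4.57, the highest replicate 1 signal of all, and another 201 bp before the end had 6.90 and 2.87. Hes7, a repressor of the somite clock, had 10.4 and 3.52 at a site 225 bp past its end. In each of the 12 pairs replicate 1 was the higher.

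The nonagouti gene (a), which encodes a pigment signalling peptide, had a 3′ UTR site with 9.63 and 3.40. Slc16a5, of the monocarboxylate transporter family, had 9.45 and 4.00 at a site 258 bp before its end. Thbs4, a secreted thrombospondin of the extracellular matrix, had 9.23 and 4.76 at an intronic site 320 bp before the annotated end, and a weaker site 420 bp past it with 1.67 and 1.89. The nearest transcript start was 23064 bp from its first site.

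The last of the 12 were at Dnajb12, a co-chaperone gene of the endoplasmic reticulum (9.18 and 4.11, 438 bp past the end), Pitx3, a homeobox gene of midbrain dopamine neurons and lens (9.60 and 3.16, 235 bp past the end), and Prss22, a serine protease gene (8.73 and 4.13, 246 bp before the end). The Pitx3 midpoint lay in the 3′ UTR of another annotated gene. A site is named here by the nearest gene end only, and which gene it acts on, if any, was not tested.

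**Figure D2:**
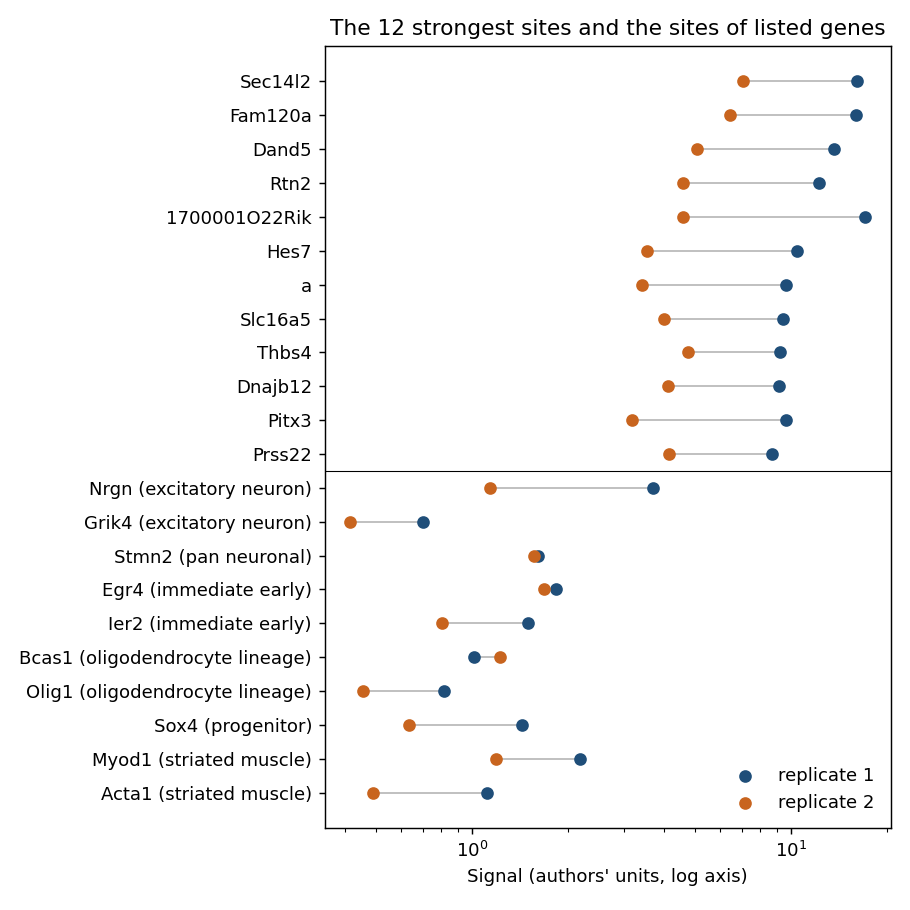
Signal (authors' units, log axis) of the 12 strongest sites (upper block) and of the strongest site of each listed gene (lower block, list in parentheses), with replicate 1 in blue and replicate 2 in orange. The upper block spans 8.73 to 17.0 in replicate 1; of the listed genes, Nrgn is highest with 3.69 and Grik4 lowest with 0.699.

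Gene ends rarely held such a site. Of 18056 autosomal gene ends with at least 500 eligible bases in the 500 bp on either side, 607 (3.36%) had a member, and 16062 had no peak of either library at all. An eligible base is autosomal, outside coding sequence and over 1 kb from every start, the positions the rule allows. The share ran from 2.39% of ends on chromosome 12 to 5.09% on chromosome 8. A further 13 sites lay at ends with fewer eligible bases, 37 were within 500 bp of more than 1 gene end, and 14 overlapped another site.

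Over 500 bp on either side, gene ends had slightly more shared sites per eligible base than the nearby sequence. Shared sites numbered 38.8 per Mb within 500 bp of an end and 35.4 per Mb at 2 to 5 kb on either side, a ratio of 1.10, and with a window of 250 bp the ratio was 0.970. The flanks themselves were unequal, with 30.9 per Mb on the side before the end and 39.5 per Mb past it. Taken alone, replicate 1 had 65.7 peaks per Mb within 500 bp and 51.7 at 2 to 5 kb, and replicate 2 had 72.9 and 66.9. Among bases 1 to 2 kb from a start, density was 45.7 per Mb near ends, 37.1 at 2 to 5 kb and 37.4 beyond 5 kb. In the same order, bases 2 to 5 kb from a start had 37.8, 34.8 and 27.6 per Mb. Those 5 to 10 kb from a start had 42.3, 34.9 and 24.8, and those over 10 kb had 32.7, 35.5 and 19.8. Only in the last class was density near ends below that at 2 to 5 kb from the end. The share of eligible bases with a cut-rate FDR under 0.05 was 1.89% within 500 bp and 1.47% at 2 to 5 kb in replicate 1. In replicate 2 it was 2.01% and 1.83%.

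The annotated end itself was a low point in the number of sites. In the 100 bp on either side of the end there were 73 sites (11.3%), or 20.8 per Mb, against 41.7 per Mb at 100 to 500 bp before the end and 45.2 at 100 to 500 bp past it. The lowest 100-bp step was the last before the end, with 14.6 per Mb, and the step from 200 to 300 bp past it had 57.9. Each library alone also had fewer peaks close to the end, with 33.9 and 51.3 per Mb in replicates 1 and 2. They had 72.3 and 78.3 at 100 to 500 bp before the end, and 75.7 and 79.0 at 100 to 500 bp past it. The libraries differed in shape. In the 100 bp before the end they had 23.9 and 35.5, and in the 100 bp past it 43.5 and 66.3. The last value was near the 66.9 of replicate 2 at 2 to 5 kb. The share of eligible bases with a cut-rate FDR under 0.05 was counted without the peak calls. It is not a separate measurement, since it comes from the same libraries and the median site passed at 100% of its bases in both. This share was 1.42% in replicate 1 and 1.62% in replicate 2 close to the end. It was 1.97% and 2.04% at 100 to 500 bp before it, and 2.06% and 2.18% at 100 to 500 bp past it. At 2 to 5 kb it was 1.37% and 1.59% on the side before the end and 1.56% and 2.05% on the side past it, so by this measure the end was low beside its immediate surroundings but near the level of the sequence 2 to 5 kb before it.

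**Figure D3:**
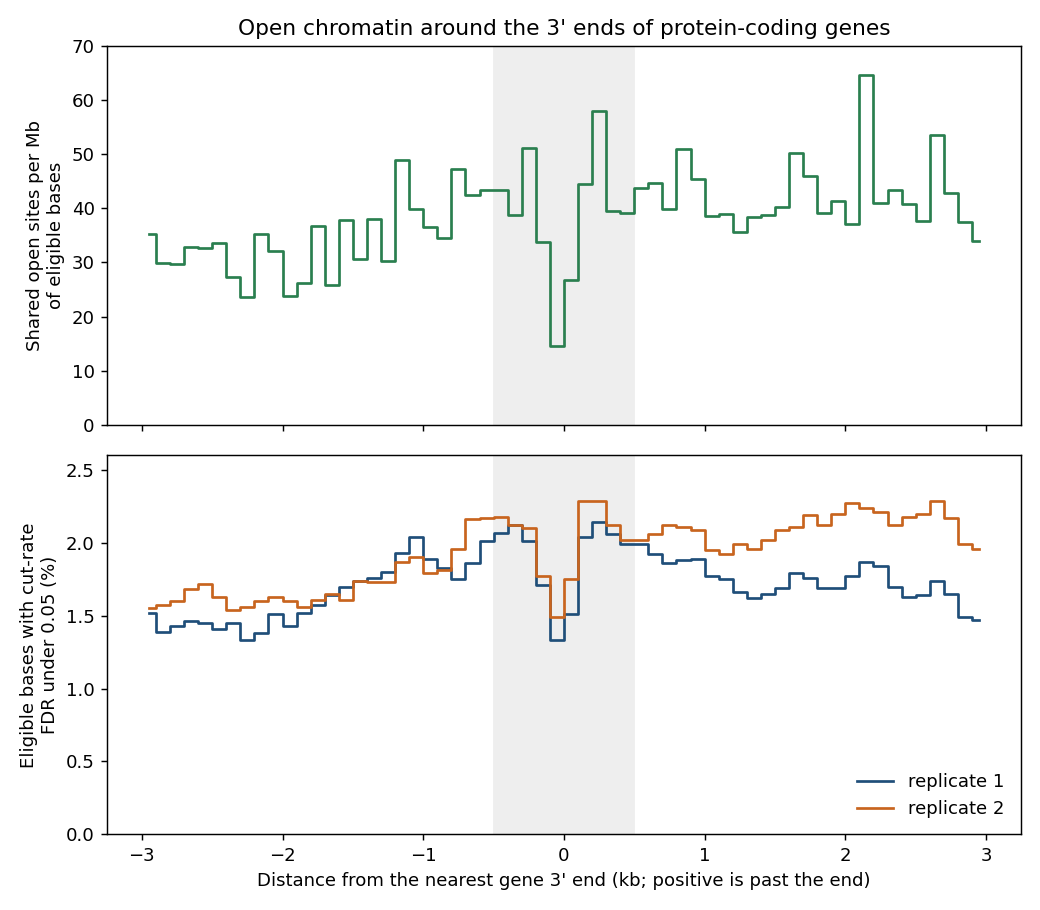
Shared sites per Mb of eligible bases (top) and the percentage of eligible bases with a cut-rate FDR under 0.05 in each library (bottom), in steps of 100 bp by distance from the nearest gene 3′ end in kb, positive past the end; grey marks the 500 bp on either side. Both panels dip at the end, to 14.6 sites per Mb in the step just before it, and site density in the grey band is otherwise within the range of the flanks.

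Past the end lay 366 sites (56.5%) and before it 282 (43.5%). Eligible bases were also unequal, with 8.82 Mb past the end and 7.89 Mb before it, which gave 41.5 and 35.8 sites per Mb. The sides differed away from the end too, with 39.5 per Mb at 2 to 5 kb past it and 30.9 at 2 to 5 kb before it. By annotation 297 midpoints (45.8%) were outside genes, 275 (42.4%) in a 3′ UTR, 58 (8.95%) in an intron and 18 (2.78%) in another exon, and 81 peaks (12.5%) spanned the annotated end. Signal medians in replicates 1 and 2 were 1.25 and 0.860 in 3′ UTRs, 1.31 and 0.952 outside genes, and 1.33 and 0.978 in introns. The 18 sites in other exons had 1.75 and 0.785, the highest of the 4 places in replicate 1 and the lowest in replicate 2. The 73 sites within 100 bp of the end had medians of 1.65 and 1.10, against 1.19 and 0.854 for the 257 farther before it and 1.33 and 0.906 for the 318 farther past it. Sites were thus fewest beside the end, and those present there had the higher medians.

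The distance from the nearest transcript start had a median of 4962 bp, against 13710 bp for the other shared distal sites. It was 1 to 2 kb for 118 sites (18.2%) and over 10 kb for 149 (23.0%). Just inside the start limit, the 10 sites that cleared it by at most 100 bp had signal medians of 1.04 and 0.756, and the 11 shared peaks that missed it by less than 100 bp had 1.81 and 0.883. Inside the limit on distance from the end, the 132 sites in the outermost 100 bp had 1.21 and 0.842, and the 140 shared distal sites in the next 100 bp had 1.39 and 0.900. The 450 replicate 1 peaks that met every condition of position but had no overlap in replicate 2 had a median signal of 0.494. The shared fraction of the peaks that met the conditions of position was 59.0%, and that of all autosomal replicate 1 peaks was 71.2%.

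Sites at gene ends had a median GC content of 54.5% in 200 bp, which is a property the rule did not use. The other shared distal sites had 52.0%, and 75206 windows of the same length at gene ends without a peak of either library had 43.0%. Shared distal sites between 500 bp and 5 kb from the end had medians of 52.5% to 54.5% in steps of 500 bp. Near the end, windows without a peak fell to 38.5% and open sites to 51.0%, and the sites had the higher GC content at each distance. Observed over expected CpG was 0.246 at gene ends, 0.254 at other distal sites and 0.168 in the windows without a peak. The median window without a peak was 15.0% repeat.

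The poly(A) hexamer was present at similar shares of ends with and without an open site. AATAAA stood 10 to 35 bases before the annotated end, on the strand of the gene, at 329 of 607 ends with a site (54.2%) and at 55.1% of the 16062 ends without a peak. At the 71 eligible ends with a site within 100 bp it stood at 38 (53.5%). ATTAAA without AATAAA was found at 13.3% of ends with a site, 12.5% of ends without a peak, and 3 of the 71 ends with a site within 100 bp (4.23%). Over whole 200-bp windows and both strands, AATAAA was in 43.8% of the 73 sites within 100 bp of the end and in 75.1% of the closed windows there, and ATTAAA in 16.4% and 36.5%. Those closed windows are centred on the end and always cover the bases before it, while the window of a site lies up to 100 bp to either side. Farther out, AATAAA was found in 7.26% of sites and 27.1% of windows without a peak at 300 to 500 bp before the end, and in 8.03% and 23.3% at 300 to 500 bp past it. The windows without a peak also had the lower GC content at these distances (43.5% and 45.0%, against 55.0% and 53.5% in the sites), and its part in this difference was not tested.

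**Figure D4:**
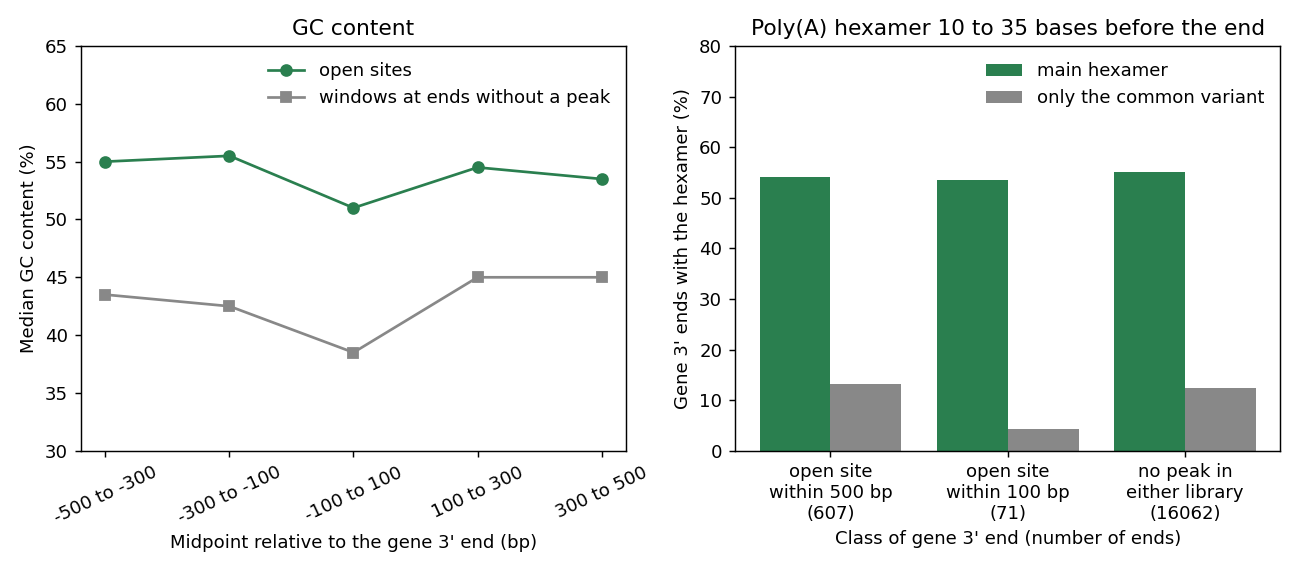
Left, median GC content (%) of 200-bp windows by midpoint relative to the gene 3′ end for open sites (green) and for windows at ends without a peak (grey). Right, percentage of gene ends with the poly(A) hexamer AATAAA (green), or only its variant ATTAAA (grey), 10 to 35 bases before the end, by class of end. Open sites are near 55% GC at most distances and closed windows near 45% or lower, while AATAAA is at 53.5% to 55.1% of ends in the 3 classes.

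CTCF matches were found in 89 sites (13.7%), in 7.18% of the other shared distal sites and in 0.0758% of the closed windows. CTCF was singled out of 22 motifs after their values were seen. The share was not particular to the ends. Over steps of 500 bp reaching 5 kb from the end it ran from 9.86% to 16.1% of shared distal sites, with 12.4% in the 500 bp before the end and 14.8% in the 500 bp past it. The consensus itself occurred 11.2 times per eligible Mb within 500 bp of ends, 9.55 times at 2 to 5 kb and 4.35 times beyond 5 kb. Of these matches, 47.3%, 47.9% and 34.3% lay in a shared peak.

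**Figure D5:**
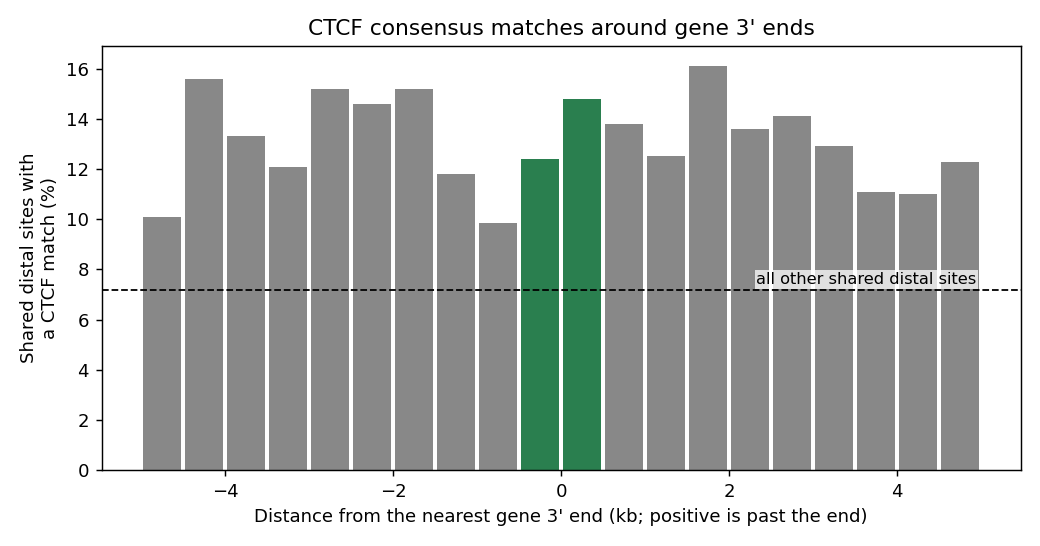
Percentage of shared distal sites with a CTCF consensus match in the 200 bp around the midpoint, in steps of 500 bp by distance from the nearest gene 3′ end in kb, with the 500 bp on either side in green. The dashed line is the 7.18% of all shared distal sites that are not at a gene end, and all 20 steps lie above it, from 9.86% to 16.1%.

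Sites with a CTCF match had a signal median of 2.23 in replicate 1 and 1.49 in replicate 2. Those without had 1.19 and 0.842. The other shared distal sites also differed, with 2.03 and 1.27 where there was a match and 0.851 and 0.692 where there was none. Among the gene-end sites with a match, signal of the strongest was 13.6 and 5.05 at Dand5, 9.60 and 3.16 at Pitx3, 8.97 and 2.93 at Ripor1, 8.22 and 3.72 at Ror2, and 7.80 and 3.57 at Rap1gap. Ror2 encodes a receptor for Wnt ligands and Rap1gap a GTPase activator of Rap1. The Ror2 site held 2 matches in a row, both against the direction of the gene. Next came Bcan, which encodes brevican, a proteoglycan of the brain matrix and of perineuronal nets, with 7.19 and 3.89.

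Among the 91 matches in the 89 sites, 84 (92.3%) overlapped a footprint in both libraries, and at other distal sites 90.0% did. The core read in the direction of the gene at 50 matches and against it at 41. Its commonest form was CCACCAGGGGGC, with 18 of the 91, the form seen at Ripor1, Rap1gap and Stac3 above. CCAGCAGAGGGC followed with 14. A match is a description of letters, and CTCF binding was not measured here.

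The remaining motifs mostly stood near the shares of the other distal sites. The GC box GGGCGG, bound by SP and KLF factors, was in 11.4% of sites, 8.81% of other distal sites and 2.41% of closed windows. The NeuroD-type E-box CAGATG was in 23.6%, 27.5% and 14.5%, CAGCTG in 20.2%, 22.9% and 8.65%, and the NFI arm TTGGCA in 18.4%, 22.4% and 9.69%. The RUNX motif TGTGGTT was in 6.48%, 3.95% and 5.08%. The homeodomain core TAATTA was in 1.54%, 3.83% and 6.77%, in the order of falling GC content of the sets. MEF2, NRF1, EGR and REST motifs matched no site, and at most 0.388% of other distal sites. Each motif was searched on both strands, and overlapping matches of different motifs were all counted.

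A footprint found in both libraries lay in 475 sites (73.3%), against 62.1% of all shared distal sites. The share was not particular to the ends. In steps of 500 bp between 500 bp and 5 kb from the end, 66.2% to 78.6% of shared distal sites had one. By strength the comparison with the other distal sites had no single direction. Above the 75th percentile of replicate 1 signal, 99.1% of sites at gene ends and 97.3% of other distal sites had one. From the 50th to the 75th percentile it was 76.3% and 76.4%, and from the 25th to the 50th it was 36.0% and 46.7%. Below the 25th, 10 of 50 sites and 17.1% of other distal sites had one. Sites had a mean of 2.75 footprints in replicate 1 and 2.31 in replicate 2. The most lay 172 bp past the end of Serpinf2, which encodes the plasmin inhibitor alpha-2-antiplasmin, with 8 footprints found in both. Its peak was 360 bp wide, with a signal of 4.73 and 3.59. Sectm1b and Trp53bp2, a gene of a p53-binding protein, had 7 each.

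The deposited stricter lists of both libraries held 379 of the sites (58.5%), against 54.0% of all shared distal sites. The 3 sites of Acap3, a GTPase activator of the Arf family, were among the weakest, with 0.296 to 0.380 in replicate 1 and 0.150 to 0.196 in replicate 2, and 2 of them overlap each other. Npm3, a nucleoplasmin-family histone chaperone gene, had a site 74 bp past its end with 7.11 and 2.59 and another 459 bp past it with 0.638 and 0.306.

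Transcription was not measured. The share of ends with a site was 3.83% where the gene's own 5′ end was open in both libraries (407 of 10629) and 2.69% where it was not (200 of 7427). It was 4.01% where the end of a gene on the other strand lay within 1 kb (64 of 1597) and 3.30% elsewhere. Genes under 10 kb had 2.88%, those of 10 to 50 kb 3.81% and longer genes 3.20%. The annotated gene end was also the end of a coding transcript for 93.5% of sites and 93.7% of eligible ends.

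The tissue label was checked at gene starts. A shared peak within 500 bp of the 5′ end was found at 57.1% of autosomal protein-coding genes, at 15 of 18 pan-neuronal genes, 13 of 20 excitatory, 13 of 16 astrocyte and 9 of 20 inhibitory neuron genes. It was found at 18 of 20 immediate early, 12 of 16 progenitor, 8 of 16 oligodendrocyte lineage, 5 of 16 microglia, 5 of 15 endothelium and mural and 1 of 11 ependyma and choroid plexus genes. Of the contrast lists, it was found at 2 of 16 striated muscle genes (Mylpf and Ryr1) and at none of 16 liver, 14 blood and 14 germline genes. Among the defining markers without one at the annotated 5′ end were Slc17a7, the vesicular glutamate transporter gene, Gad1 and Gad2, the GABA synthesis genes, and Rbfox3, which encodes the neuronal nuclear antigen NeuN. A peak at an internal start does not count in this measure.

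At their 3′ ends, 10 of 236 listed genes with an eligible end had a site (4.24%), against 3.36% of all eligible ends. Of 20 excitatory neuron genes these were Nrgn, the calmodulin-binding protein neurogranin of dendritic spines, and Grik4, a kainate receptor subunit. The Nrgn site lay in the 3′ UTR, 498 bp before the end and 1148 bp from a start, and had 3.69 and 1.14. The Grik4 site had 0.699 and 0.415. Of 18 pan-neuronal genes only Stmn2, a microtubule regulator of growing axons, had a site, with 1.61 and 1.56 at 374 bp past the end. None of the 20 inhibitory neuron genes had a site, a list too small for an absence to be read against the 3.36%.

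Of 19 immediate early genes, which neuronal activity induces, Egr4 had a site 461 bp past its end with 1.83 and 1.68, and Ier2 a site in its 3′ UTR with 1.50 and 0.802. Of 15 genes of the oligodendrocyte lineage, Bcas1, a marker of cells that begin to myelinate, had 1.01 and 1.22, and Olig1, a lineage transcription factor, had 0.813 and 0.456. Bcas1 was the 1 listed gene with the higher value in replicate 2. Sox4, a transcription factor gene of immature neurons, had 1.43 and 0.635 and was the 1 of 14 progenitor genes with a site. The contrast list of striated muscle also had 2 of 14. Myod1, the muscle determination factor gene, had a site 91 bp past its end with 2.18 and 1.19, and Acta1, skeletal muscle actin, had 1.11 and 0.490. The midpoints at Sox4 and Acta1 lay 189 and 279 bp past the gene end, in an intron of another annotated gene. Neither Myod1 nor Acta1 had a shared peak within 500 bp of its 5′ end.

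None of the eligible genes of astrocytes (13), microglia (15), endothelium and mural cells (14), ependyma and choroid plexus (10), housekeeping (12), liver (16), blood (10), germline (11) or polyadenylation and termination (17) had a site. Each of these lists was too small for an absence to be read against the share of all eligible ends. By family, set beside the 3.36% of all eligible ends, solute carriers had a site at 18 of 323 eligible ends (5.57%), Tmem genes at 10 of 200 and Zfp zinc finger genes at 6 of 355 (1.69%). Olfactory receptor genes had 2 of 961 (0.208%). None of the 41 eligible ends of cytosolic ribosomal protein genes and none of the 26 eligible ends of histone genes had a site, numbers too small to read against that share. Of 80 autosomal histone genes most had too few eligible bases to be counted, and Hist1h1b, a linker histone gene among those, had a site 303 bp past its end with 1.12 and 2.23.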

How the data were processed

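Chromatin openness was measured by DNase-seq in 2 libraries of 1 group. Per the deposited file listings, the authors derived each file from that library's own alignment on mm10, so peaks were called per library. Aligner and callers: not given in the sources used here. Per the file headers and listings, peak lists give the authors' signal per peak, whose scaling is not stated, so the depth in reads is unknown. Deposited FDR files (p-value type, q-value) list runs of bases with a cut-rate FDR under 0.05. The deposited footprint score is 0.01 in every row, so only footprint positions were used.

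The longer list of each library was used on 19 autosomes. A replicate 2 value is that of its strongest overlapping peak. Gene models were GENCODE M21, sequence RefSeq GRCm38.p6, and coordinates are 1-based. Composition and 22 motifs were read in 200 bp around each midpoint. Closed windows were 200-bp tiles centred on eligible bases at eligible ends. The finding of the sites was checked on simulated data. Python 3.11.15, numpy 2.4.6, pandas 2.3.3 and matplotlib 3.10.9 were used.

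Named sites were the 12 of highest smaller percentile, up to 3 genes of each of 16 lists, the 5 genes with most sites, the 5 strongest with a CTCF match and the 3 with most footprints, and others were chosen after their values were seen. Members, motifs and lists were chosen with earlier results of these data known. Alternatives were another list, window, start distance, coding filter, overlap, set of ends and reference library, and each library alone.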

Additional observations from a re-analysis of the deposited data

How the results depend on the processing

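With 2 libraries of 1 group, stability could be judged only by setting each result against its alternatives. Of 104 alternative values, 58 moved by less than the SD of the values from each library alone (counts: within 1.5 times) and 46 by more. No paired analysis was possible because there is a single group. The shorter lists gave 379 sites, at 1.97% of ends, with 58.6% at or past the end, a median percentile of 60.4, CTCF matches in 19.0% and a footprint in both libraries in 91.0%. A window of 250 bp gave 294 sites, at 1.55% of ends, with 60.5% past the end, 24.8% within 100 bp, CTCF in 12.6% and 3 listed genes, and its density was 0.970 times that at 2 to 5 kb, against 1.10 for 500 bp, so the ratio changed side of 1. A window of 1000 bp gave 1321 sites, at 6.40% of ends, with 5.53% within 100 bp, CTCF in 12.9% and 18 listed genes. Asking for over 2 kb from a start gave 55.3% past the end and 6 listed genes. With the whole peak outside coding sequence, 60.0% lay past the end and 14.5% had CTCF. Reciprocal overlap gave 56.8%, CTCF in 15.8% and a footprint in both in 82.9%. With ends of all coding transcripts, 4.90% of genes with an eligible gene end had a site at any of their ends, which is not a share of ends. That set had CTCF in 13.1% and 16 listed genes. With replicate 2 as the reference, 55.7% lay past the end. The median percentile, then taken within replicate 2, was 75.5, near the 76.1 of the 648 sites in that library. It was counted as a move only because it was set against their replicate 1 percentile of 67.0.

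Each library alone, with no overlap asked, gave 1098 to 1218 sites at 5.11% to 6.06% of ends, a density ratio of 1.09 to 1.27, 55.3% to 55.6% past the end, 10.8% to 14.8% within 100 bp, a median percentile of 51.4 to 56.6, a median GC content of 50.5% to 55.0%, CTCF in 8.65% to 9.44%, a footprint in both in 40.0% to 43.3%, and 18 to 20 listed genes. By construction these sets include peaks that only 1 library called. The cause of the other moves was not tested. The depth in reads is unknown, so its limits could not be measured.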
